A study of Mus musculus with 13 samples.

Results

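miR-486 is a microRNA of striated muscle and red cells, and it was followed here in the blood plasma of 13 mice. It occupies 4 of the 1907 rows of mature miRNAs in the deposited count table, found by name: mmu-miR-486a-5p, mmu-miR-486b-5p, mmu-miR-486a-3p and mmu-miR-486b-3p (mmu, for mouse, is left off from here on). All 4 passed the filter on low counts, which kept 368 miRNAs for testing. The mice were 3 Givinostat mice (animals 31, 34 and 35), 4 vehicle mice (40, 41, 42 and 43), 3 naive mdx mice (36, 37 and 39) and 3 naive wt mice (86, 89 and 95). The first 3 groups, 10 mice in all, were C57BL10ScSn-Dmdmdx/J (mdx) males. They share a point mutation in the dystrophin gene, which the study describes as causing loss of dystrophin. Givinostat, an inhibitor of histone deacetylases, was given by gavage at 37.5 mg/kg over 15 weeks, and vehicle was 0.5% methylcellulose on the same schedule. Naive mice were not dosed but, like the dosed mice, went through the study's grip and treadmill tests. All plasma was from the time point at the end of the 15 weeks. Naive wt mice were C57BL/10J, and that strain name also stands in the labels of the mdx samples, where the titles and the study's methods give mdx. Each mouse gave 1 library of small RNA from EDTA plasma.

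miRNAs are short RNAs that pair with messenger RNAs through their seed and repress them. A hairpin precursor is cut into a 5p and a 3p strand, of which one usually becomes the guide. miR-486 lies inside the gene of ankyrin-1, a protein that ties the membrane to the skeleton of red cells and that has a short form in muscle. It is abundant in maturing red cells and in skeletal and heart muscle, where it is known to repress Foxo1, a transcription factor that drives muscle atrophy. Plasma holds miRNAs released from many tissues, and lysed red cells add theirs.

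Both precursors sit at the same place. In GRCm38, Mir486 (the a copy) spans chromosome 8, 23142555 to 23142682, on the plus strand, 128 bases in the GENCODE annotation. Mir3107, the b copy, spans 23142573 to 23142662 on the minus strand, 90 bases, and lies wholly within Mir486. The a copy has the orientation of Ank1 (22974844 to 23150497, plus strand) and overlaps 0 of its exons, so both copies are intronic. The annotated antisense gene Gm15816 (23138794 to 23149585, minus strand) also spans them, again with 0 exons overlapped. The mature sequences of the copies are close or equal, so reads may be shared between their rows. How reads that fit both copies were divided between the a and b rows is not given in the sources used here. A difference between the rows is therefore not taken as one between the copies, and the rows were read separately and as the sum of each arm.

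The level of miR-486 was set against miRNAs that mark its known sources. Ratios to miR-451a, miR-144-3p and miR-206-3p are given below, and none was computed to miR-133b-3p. The mature sequences of these 4, from RefSeq (GRCm38.p6), are shown with the seed, bases 2 to 8, in capitals.
miR-451a: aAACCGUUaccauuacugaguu
miR-144-3p: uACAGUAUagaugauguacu
miR-206-3p: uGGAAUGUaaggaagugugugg
miR-133b-3p: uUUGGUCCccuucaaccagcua
The red cell pair miR-451a and miR-144-3p lie next to each other on chromosome 11 (78073186 to 78073207 and 78073047 to 78073066). The muscle pair miR-206-3p and miR-133b-3p lie together on chromosome 1 (20679055 to 20679076 and 20682834 to 20682855). All 4 are on the plus strand, and their seeds differ from one another. Whether other miRNAs share these seeds was not examined.

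Total counts were 1364813 to 1437031 in Givinostat, 1283646 to 1522871 in vehicle, 1167161 to 1556118 in naive mdx and 1446195 to 2899315 in naive wt libraries. Levels are in CPM, counts scaled to a common library size, after TMM scaling, which corrects for a few very abundant miRNAs. In the naive wt libraries 1 such miRNA, miR-122-5p of the liver, took 37.6% to 64.6% of all counts. With TMM the median log2 fold change of all tested miRNAs between naive mdx and naive wt was 0.04. With library totals alone it was 0.43 and with upper-quartile factors -0.20.

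The 5p arm of miR-486, both copies summed, was about 3-fold higher in naive mdx than in naive wt plasma and was higher in all 3 mdx groups. Its levels were 5058, 5545 and 8877 CPM in Givinostat mice 31, 34 and 35. Vehicle mice 40 to 43 had 9780, 9397, 5633 and 9879 CPM. In naive mdx mice 36, 37 and 39 the sum stood at 9945, 6313 and 3789 CPM, against 2752, 2230 and 1728 CPM in naive wt mice 86, 89 and 95. Every mdx mouse lay above every wt mouse, while the 3 mdx groups overlapped each other. Group means were 6494 ± 2079 CPM with Givinostat, 8672 ± 2036 CPM with vehicle, 6682 ± 3094 CPM in naive mdx and 2237 ± 512 CPM in naive wt mice (SD, n = 3, 4, 3 and 3). The sum took 0.448% to 1.36% of the counts of an mdx library and 0.127% to 0.273% of a wt library. By abundance, among the 1907 rows with the 2 copies counted as 1, it ranked 19 to 38 in mdx mice and 49 to 54 in wt mice.

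In edgeR's quasi-likelihood test the log2 fold change of the 5p sum was 1.59 (SE 0.35, adjusted p = 0.00163) for naive mdx over naive wt. Vehicle over naive wt gave 1.97 (SE 0.34, edgeR adjusted p = 0.000184), and Givinostat over naive wt gave 1.55 (SE 0.35, edgeR adjusted p = 0.00275). These 3 comparisons share the same 3 wt mice. Scaling moved the naive mdx value between 1.38 (upper-quartile factors) and 1.98 (library totals), and its call was kept under both.

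**Figure D1:**
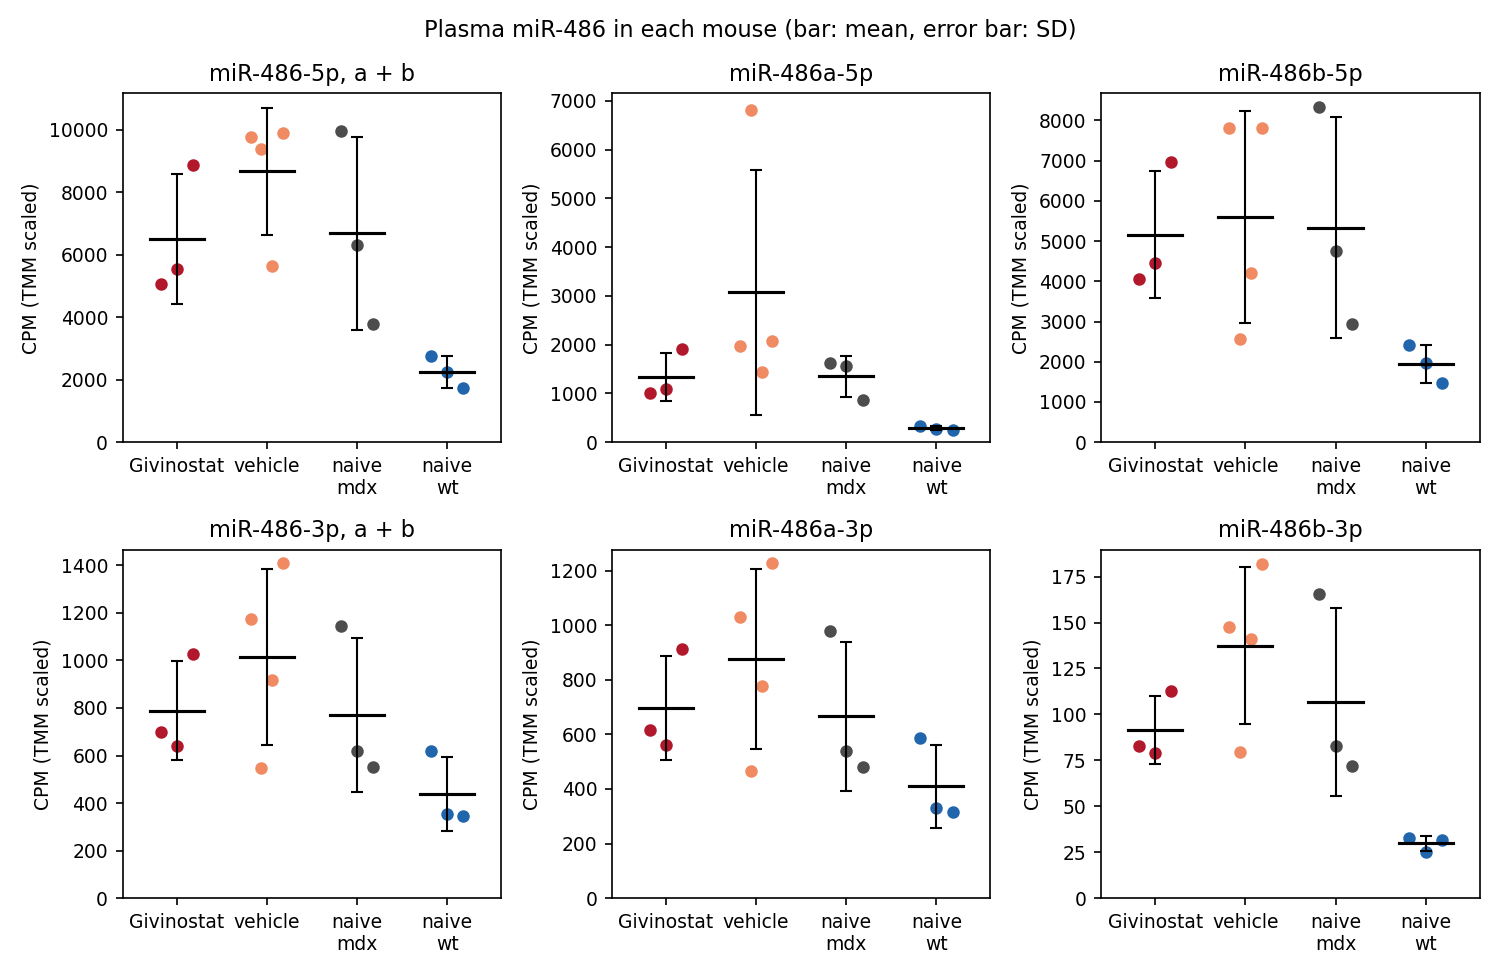
Level of miR-486 in each of the 13 mice, in CPM after TMM scaling, for the sum of both copies and for each row (top: 5p arm, bottom: 3p arm). Points are mice, bars are group means and error bars are SD. In the 5p sum the 10 mdx mice lie at 3789 CPM or more and the 3 naive wt mice at 2752 CPM or less, and vehicle mouse 41 stands at 6822 CPM in the miR-486a-5p panel.

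Taken row by row, 3 of the 4 miR-486 rows were called higher in naive mdx than in naive wt mice, where 26.9% of all tested miRNAs were called higher. In vehicle over naive wt all 4 rows were called higher (24.2% of all tested miRNAs), and in Givinostat over naive wt 3 rows (22.6%). The row that missed the threshold was miR-486a-3p in both cases. The groups did not overlap, with the mdx group higher, for 3 of 4 rows in each comparison with naive wt. The same was true of 29.9% of all tested miRNAs for naive mdx, 27.2% for vehicle and 28.5% for Givinostat.

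miR-486b-5p was the most abundant row in 12 of the 13 libraries. It had 4048, 4455 and 6970 CPM in Givinostat mice and 7809, 2575, 4204 and 7812 CPM in vehicle mice 40 to 43. Naive mdx mice had 8326, 4752 and 2929 CPM, against 2412, 1958 and 1469 CPM in naive wt mice. The lowest mdx value, that of vehicle mouse 41, was close to the highest wt value. The log2 fold change over naive wt was 1.46 (SE 0.42, edgeR adjusted p = 0.0107) for naive mdx, 1.52 (SE 0.40, adjusted p = 0.00560) for vehicle and 1.41 (SE 0.42, adjusted p = 0.0166) for Givinostat. The naive mdx call was lost without naive mdx mouse 36 (1.02, edgeR adjusted p = 0.0599) or without naive wt mouse 95 (1.30, adjusted p = 0.0543). The Givinostat call was lost without Givinostat mouse 35 (1.10, edgeR adjusted p = 0.0822) or without naive wt mouse 95 (1.28, adjusted p = 0.0693).

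miR-486a-5p was lower in level than the b row in 12 mice and showed a larger difference from wt. Givinostat mice had 1010, 1090 and 1907 CPM, and vehicle mice 40 to 43 had 1970, 6822, 1430 and 2067 CPM. Naive mdx mice had 1619, 1562 and 860 CPM, against 341, 272 and 259 CPM in naive wt mice. Mouse 41 stood far above every other mouse, and all mdx mice lay above all wt mice. The log2 fold change over naive wt was 2.21 (SE 0.48, edgeR adjusted p = 0.00163) for naive mdx, 3.40 (SE 0.49, adjusted p = 4.96e-05) for vehicle and 2.20 (SE 0.48, adjusted p = 0.00244) for Givinostat. Without mouse 41 the vehicle value was 2.82 (edgeR adjusted p = 4.62e-06).

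The 3p arm was less abundant and separated the genotypes less clearly. Its sum was 699, 640 and 1026 CPM in Givinostat mice, 1176, 546, 920 and 1410 CPM in vehicle mice and 1144, 620 and 551 CPM in naive mdx mice, against 619, 355 and 345 CPM in naive wt mice. Naive wt mouse 86 lay above vehicle mouse 41 and naive mdx mouse 39, so mdx and wt overlapped. The log2 fold change over naive wt was 0.82 (SE 0.37, edgeR adjusted p = 0.0774) for naive mdx, 1.22 (SE 0.35, adjusted p = 0.00967) for vehicle and 0.85 (SE 0.37, adjusted p = 0.0822) for Givinostat. Only the vehicle value passed the threshold. The naive mdx value passed it without naive wt mouse 86 (1.09, edgeR adjusted p = 0.0422) or vehicle mouse 41 (0.81, adjusted p = 0.0491), and with library totals (1.28, adjusted p = 0.0199).

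miR-486a-3p held most of that arm and followed its pattern. It ranged over 561 to 913 CPM in Givinostat, 466 to 1228 CPM in vehicle and 480 to 979 CPM in naive mdx mice, against 314 to 586 CPM in naive wt mice. Its log2 fold change over naive wt was 0.70 (edgeR adjusted p = 0.129) for naive mdx, 1.10 (adjusted p = 0.0186) for vehicle and 0.77 (adjusted p = 0.120) for Givinostat. The vehicle call was lost without naive wt mouse 89 (1.01, edgeR adjusted p = 0.0653) or 95 (1.01, adjusted p = 0.0692). The naive mdx value passed with library totals (1.17, edgeR adjusted p = 0.0358), and the Givinostat value when only the Givinostat and naive wt mice were fitted, at 0.92 with edgeR (adjusted p = 0.0272) and 0.80 with DESeq2 (adjusted p = 0.0352).

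miR-486b-3p, the least abundant row, did separate the genotypes. It had 82.9, 79.1 and 113 CPM in Givinostat mice, 147, 79.4, 141 and 182 CPM in vehicle mice and 165, 82.7 and 71.7 CPM in naive mdx mice, against 32.9, 25.4 and 31.5 CPM in naive wt mice. The lowest mdx mouse had over 2-fold the level of the highest wt mouse. These levels rest on 101 to 284 counts per mdx library and 45 to 67 per wt library. The log2 fold change over naive wt was 1.83 (SE 0.36, edgeR adjusted p = 0.000700) for naive mdx, 2.20 (SE 0.35, adjusted p = 0.000108) for vehicle and 1.61 (SE 0.36, adjusted p = 0.00286) for Givinostat.

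Among the mdx groups no miR-486 row or sum was called. Givinostat over vehicle, the comparison of the drug with its carrier, gave a log2 fold change of -0.42 for the 5p sum (95% interval -1.10 to 0.25, edgeR adjusted p = 0.777) and -0.37 for the 3p sum (-1.09 to 0.36, adjusted p = 0.816). Vehicle over naive mdx gave 0.39 (-0.29 to 1.06, edgeR adjusted p = 0.827) and 0.40 (-0.32 to 1.13, adjusted p = 0.827). Givinostat over naive mdx gave -0.04 (-0.75 to 0.68, edgeR adjusted p = 0.979) and 0.03 (-0.74 to 0.80, adjusted p = 0.985). Each of these intervals includes 0 and spans more than 1 log2 unit. Of all tested miRNAs edgeR called 0.272% in Givinostat over vehicle, 0% in vehicle over naive mdx and 0% in Givinostat over naive mdx. At an unadjusted p under 0.05 these comparisons held 25, 17 and 48 miRNAs, and DESeq2 called 2, 0 and 2.

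The miR-486a-5p row came nearest to a call among mdx mice, through 1 library. Its log2 fold change was -1.20 for Givinostat over vehicle (edgeR adjusted p = 0.443) and 1.19 for vehicle over naive mdx (adjusted p = 0.801). Without vehicle mouse 41 these were -0.52 (edgeR adjusted p = 0.489) and 0.49 (adjusted p = 0.831). In the b row of the same arm Givinostat over vehicle was -0.12 (edgeR adjusted p = 0.990) and vehicle over naive mdx 0.07 (adjusted p = 0.955). The remaining Givinostat over vehicle values were -0.33 for miR-486a-3p (edgeR adjusted p = 0.844) and -0.59 for miR-486b-3p (adjusted p = 0.710). For vehicle over naive mdx they were 0.40 and 0.37 (edgeR adjusted p = 0.801 for both).

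The division of the counts of each arm between the a and b rows differed between mdx and wt plasma. In the 5p arm miR-486b held 80.0%, 80.3% and 78.5% of the summed counts in Givinostat mice, 79.9%, 27.4%, 74.6% and 79.1% in vehicle mice and 83.7%, 75.3% and 77.3% in naive mdx mice, against 87.6%, 87.8% and 85.0% in naive wt mice. All 10 mdx mice lay below all 3 wt mice. Mouse 41 was reversed in its split: 9275 counts stood in the a row and 3501 in the b row, a b share with a 95% Wilson interval of 26.6% to 28.2%. Its 5p sum, 9397 CPM, was within the range of the other vehicle mice. Over all mdx mice the mean b share was 73.6%, against 86.8% in wt mice, a difference of -13.2 percentage points (exact permutation p = 0.00699, two-sided, the smallest that 10 against 3 mice allow, adjusted p = 0.0280 over 8 tests of shares). Without mouse 41 the difference was -8.07 points (exact permutation p = 0.00909).

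In the 3p arm the shift ran the other way. miR-486b held 11.9%, 12.4% and 10.98% of the 3p counts in Givinostat mice, 12.5%, 14.6%, 15.3% and 12.9% in vehicle mice and 14.4%, 13.3% and 13.005% in naive mdx mice, against 5.32%, 7.15% and 9.13% in naive wt mice. Again the 10 mdx and 3 wt mice did not overlap, and mouse 41 was within the range of the other mdx mice. The mean b share was 13.1% in mdx and 7.20% in wt mice, a difference of 5.93 points (exact permutation p = 0.00699, the smallest possible, adjusted p = 0.0280). Wilson intervals of single mice were wider here, 10.3% to 14.8% in Givinostat mouse 34 and 4.08% to 6.91% in naive wt mouse 86, and cover counting error only. Naive mdx over naive wt alone differed by -8.05 points in the 5p and 6.397 points in the 3p arm, each at an exact permutation p of 0.1, the smallest that 3 against 3 allow. Givinostat and vehicle differed by 14.4 points in the 5p arm (exact permutation p = 0.286) and by -2.09 points in the 3p arm (p = 0.0571, the smallest that 3 against 4 allow, adjusted p = 0.152). Whether the division of shared reads has a part in these shares was not tested.

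**Figure D2:**
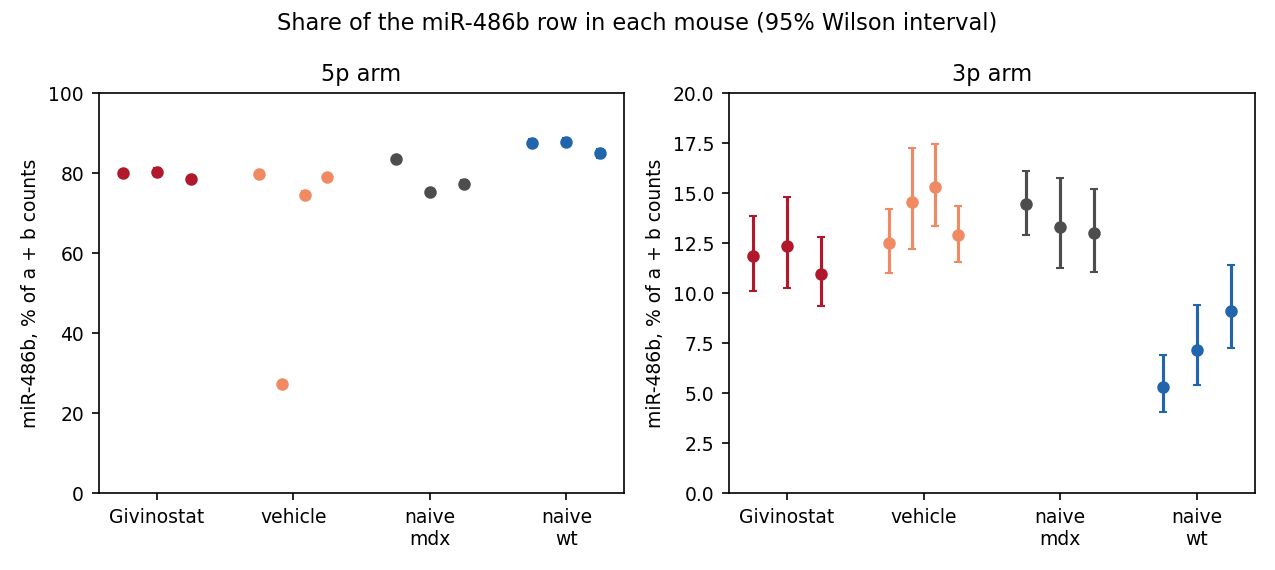
Percent of the summed miR-486a and miR-486b counts that stood in the b row, per mouse, for the 5p arm (left) and the 3p arm (right, on a shorter scale). Points are mice and bars are 95% Wilson intervals. In the 5p arm the wt mice lie at 85.0% to 87.8%, 9 mdx mice at 74.6% to 83.7% and vehicle mouse 41 at 27.4%, while in the 3p arm the mdx mice lie at 10.98% to 15.3% and the wt mice at 5.32% to 9.13%.

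The 5p arm exceeded the 3p arm in every library, and more so in mdx plasma. The log2 ratio of the 5p to the 3p sum averaged 3.03 ± 0.15 with Givinostat, 3.15 ± 0.66 with vehicle and 3.08 ± 0.29 in naive mdx mice, against 2.38 ± 0.25 in naive wt mice (SD). Vehicle mouse 41 had the highest ratio, 4.10, and vehicle mouse 42, at 2.61, lay below naive wt mouse 89, at 2.65. All mdx over wt mice differed by 0.72 (exact permutation p = 0.0140, adjusted p = 0.0559 over the 32 ratio tests computed), which did not pass after adjustment. Without mouse 41 the difference was 0.60 (exact permutation p = 0.0182), and Givinostat over vehicle moved to 0.20 (p = 0.200) from -0.12 (p = 0.971) with all mice. With the a rows alone the difference of mdx over wt was 1.67, and it was not computed for the b rows alone. In naive mdx over naive wt the a rows had a larger log2 fold change in the 5p arm (2.21) than in the 3p arm (0.70). The b rows went the other way, at 1.46 in the 5p and 1.83 in the 3p arm. The value from the a rows therefore depends on how reads were divided between the rows, which is not known.

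Most red cell miRNAs other than miR-486 were lower, not higher, in naive mdx plasma. The list holds 7 miRNAs: miR-451a, miR-144-3p and miR-144-5p, which define red cells, and miR-16-5p, miR-92a-3p, miR-25-3p and miR-363-3p, which red cells share with other cells. In naive mdx over naive wt 0 were called higher and 4 lower, where 16.6% of all tested miRNAs were called lower, with a median log2 fold change of -0.86 beside 0.04 over all tested miRNAs. miR-451a, made in maturing red cells without Dicer, fell by 1.17 on the log2 scale (edgeR adjusted p = 0.00106), miR-144-3p fell by 1.72 (adjusted p = 0.00209), miR-144-5p fell by 2.20 (adjusted p = 0.00209) and miR-16-5p fell by 0.86 (adjusted p = 0.00566). Vehicle over naive wt had 0 higher and 5 lower (median -0.73), beside 23.1% of all tested miRNAs lower, and Givinostat over naive wt 0 higher and 2 lower (median -0.51), beside 11.7%. With library totals in place of TMM the lower calls were 0, 3 and 2 for Givinostat, vehicle and naive mdx, and none was higher. With Givinostat miR-451a was at -0.24 relative to naive wt (edgeR adjusted p = 0.441). Summed over the list the level was 15278 to 19241 CPM with Givinostat, 13962 to 16252 CPM with vehicle and 12896 to 20923 CPM in naive mdx mice, against 20169 to 26661 CPM in naive wt mice. No defining marker was at 0 in any library, and the fewest counts were 14, of miR-144-5p in a vehicle mouse.

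Muscle miRNAs were mostly called higher as well. Of 7, namely miR-133b-3p, miR-206-3p, miR-133a-3p, miR-133a-5p, miR-1a-3p, miR-499-5p and miR-208b-3p, 6 were called higher in each of the 3 comparisons with naive wt. Of all tested miRNAs, 26.9% were called higher in naive mdx, 24.2% in vehicle and 22.6% in Givinostat over naive wt. The median log2 fold change was 4.26 in naive mdx, 4.76 in vehicle and 4.92 in Givinostat mice. miR-206-3p, a miRNA of skeletal muscle and its regeneration, rose by 4.26 in naive mdx over naive wt (edgeR adjusted p = 1.46e-07). miR-499-5p, encoded in a slow myosin gene, was the exception, at 0.95 (edgeR adjusted p = 0.0768). The list summed to 325454 to 534637 CPM with Givinostat, 319564 to 472262 CPM with vehicle and 207195 to 422208 CPM in naive mdx mice, against 9637 to 17567 CPM in naive wt mice. From plasma, more releasing cells and more RNA released per cell cannot be told apart.

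**Figure D3:**
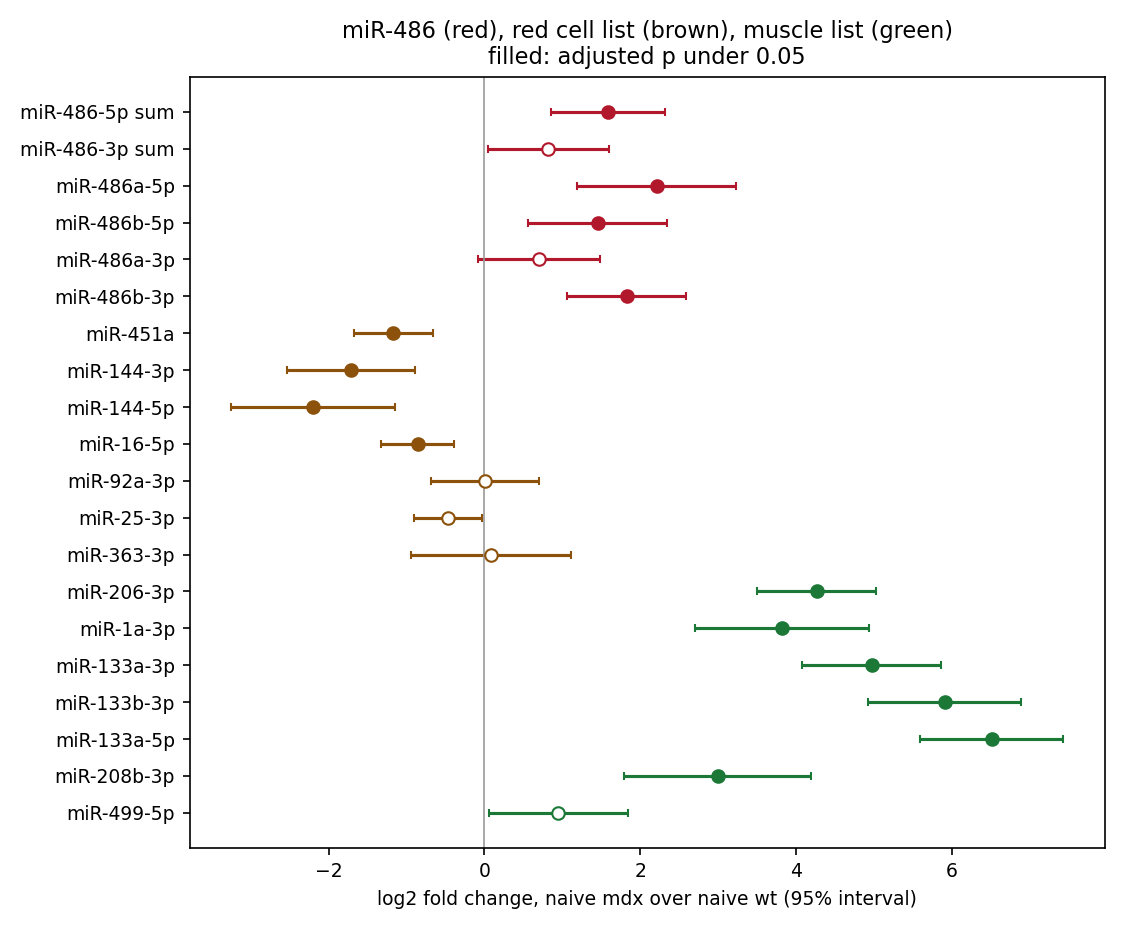
Log2 fold change of naive mdx over naive wt with 95% intervals from edgeR for the miR-486 sums and rows (red), the red cell list (brown) and the muscle list (green). Filled points passed an adjusted p of 0.05. The 5p sum lies at 1.59, between the median of the red cell list, -0.86, and that of the muscle list, 4.26. miR-499-5p of the muscle list lies below the 5p sum.

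Ratios within a library do not depend on scaling, and those of miR-486-5p were computed to 3 miRNAs of the red cell list and 3 of the muscle list. Its log2 ratio to miR-451a was -0.07, -0.0016 and 1.39 in Givinostat mice 31, 34 and 35, and 1.55, 1.67, 1.11 and 2.06 in vehicle mice 40 to 43. In naive mdx mice it was 2.05, 1.51 and 0.40, against -1.11, -1.44 and -1.49 in naive wt mice. In the wt mice miR-451a thus outnumbered miR-486-5p, and in 8 of 10 mdx mice the order was turned round. The difference of all mdx over wt mice was 2.51 on the log2 scale (exact permutation p = 0.00699, the smallest possible, adjusted p = 0.0373). Naive mdx over naive wt alone gave 2.67 (exact permutation p = 0.1, the smallest that 3 against 3 allow).

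Givinostat mice had the lowest mean ratio to miR-451a among mdx groups, 0.44 ± 0.82, with 1.60 ± 0.39 in vehicle mice (SD, n = 3 and 4). The difference of -1.16 gave an exact permutation p of 0.114 and the groups overlapped. In the same mice miR-451a averaged 4757 ± 1186 CPM with Givinostat and 2817 ± 425 CPM with vehicle. That difference was not called, at a log2 fold change of 0.76 (edgeR adjusted p = 0.255). The ratios to miR-144-3p and miR-16-5p, the only other red cell miRNAs for which one was computed, also differed between mdx and wt mice, by 3.42 for miR-144-3p and 2.36 for miR-16-5p (exact permutation p = 0.00699 and adjusted p = 0.0373 for each).

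Relative to miR-206-3p and miR-133a-3p, 2 of the 7 muscle miRNAs, miR-486-5p was lower in mdx plasma. Its log2 ratio to miR-206-3p was -4.98, -5.62 and -4.82 in Givinostat mice, -4.52, -4.47, -5.23 and -4.09 in vehicle mice and -3.19, -4.997 and -5.21 in naive mdx mice, against -1.83, -1.70 and -1.67 in naive wt mice. The mdx and wt mice did not overlap. All mdx over wt mice differed by -2.98 (exact permutation p = 0.00699, adjusted p = 0.0373), and Givinostat over vehicle by -0.56 (p = 0.171). The ratio to miR-133a-3p changed by -3.38 between mdx and wt (exact permutation p = 0.00699, adjusted p = 0.0373). For miR-1a-3p the change was -2.67 (exact permutation p = 0.0140, adjusted p = 0.0559), which did not pass. No ratio was computed to miR-499-5p, whose log2 fold change of 0.95 in naive mdx over naive wt mice was smaller than the 1.59 of the 5p sum. The ratio to miR-122-5p of the liver moved by 5.47 (exact permutation p = 0.00699, adjusted p = 0.0373), and that miRNA itself stood -3.91 on the log2 scale in naive mdx relative to naive wt mice (edgeR adjusted p = 0.00117).

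**Figure D4:**
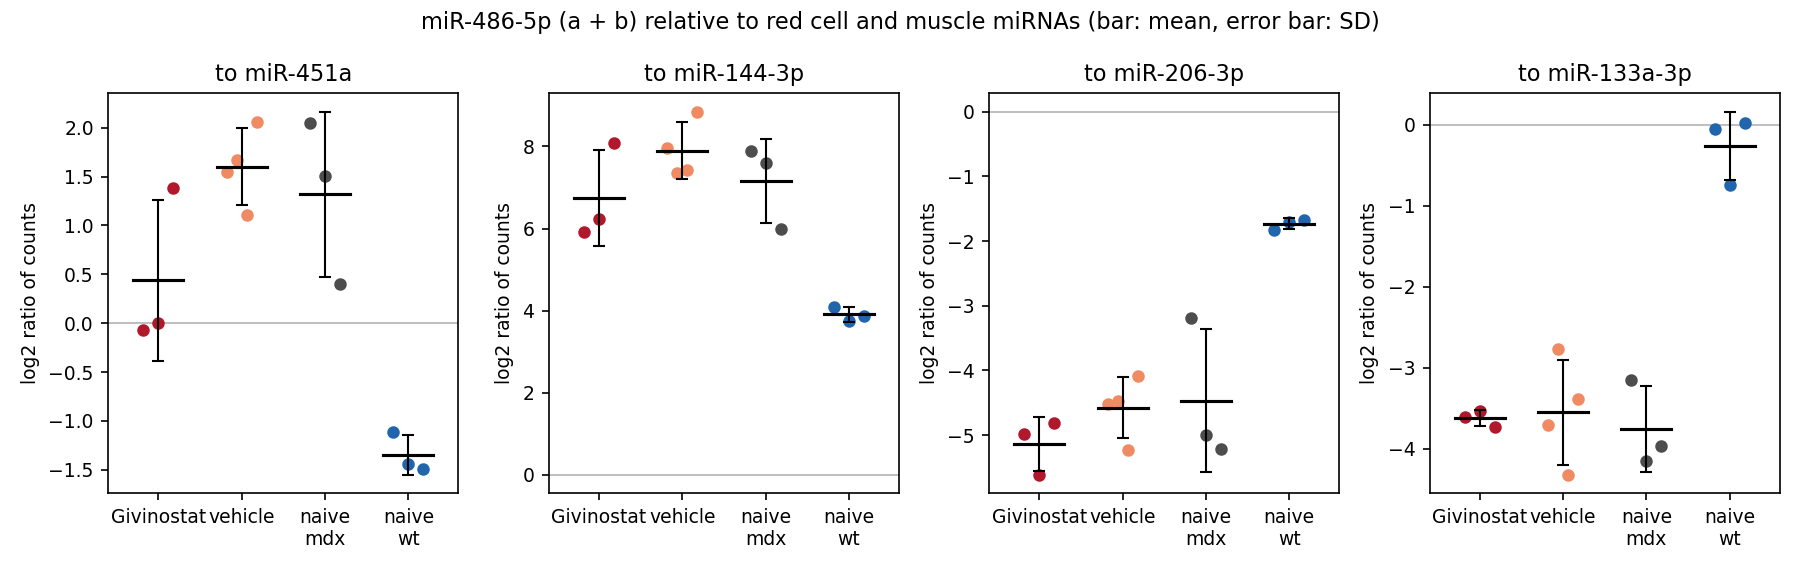
Log2 ratio of the counts of miR-486-5p (both copies) to those of miR-451a, miR-144-3p, miR-206-3p and miR-133a-3p in each mouse, with 0.5 added to each count. Points are mice, bars are means and error bars are SD, and a grey line marks 0. The mdx mice lie above the wt mice for both red cell miRNAs and below them for both muscle miRNAs.

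The groups also differed in their red cell index. A usual index of red cell lysis in plasma, miR-451a over miR-23a-3p on the log2 scale, was -1.03 ± 0.44 with Givinostat, -1.91 ± 0.22 with vehicle and -2.20 ± 0.44 in naive mdx mice, against 0.01 ± 0.11 in naive wt mice. Every wt mouse lay above every mdx mouse. The denominator differed too: miR-23a-3p averaged 9534 ± 829.1 CPM with Givinostat, 10492 ± 852 CPM with vehicle and 11575 ± 2285 CPM in naive mdx mice, against 5623 ± 1018 CPM in naive wt mice. With this ratio as a covariate in edgeR the 5p sum was no longer called in any comparison with naive wt, at a log2 fold change of 0.29 for naive mdx (adjusted p = 0.990), 0.87 for vehicle (adjusted p = 0.879) and 0.91 for Givinostat (adjusted p = 0.494). Since the covariate separates wt from mdx completely, its part and that of genotype cannot be told apart in this model, which called 1 miRNA in all for naive mdx over naive wt. When the 7 red cell miRNAs were left out of the counts, no miR-486 call changed. Of the other lists, liver had 4 of 4 called lower in naive mdx over naive wt, myeloid 1 of 3 lower, endothelial and platelet 1 of 2 lower and lymphocyte 0 of 1, beside the same 16.6% of all tested miRNAs called lower, and their part in the miR-486 values was not tested.

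The miRNAs most like miR-486-5p over all 13 libraries belonged to neither list. Likeness was taken as a small SD of the log2 ratio to the 5p sum, among 163 miRNAs with a mean count of at least 100. The nearest were miR-30d-5p (SD 0.42), miR-30c-5p (0.45), miR-501-3p (0.46), miR-128-3p (0.50) and miR-1964-3p (0.54), while the median miRNA had 1.05. The 3p sum of miR-486 itself had 0.49. miR-451a, at 1.30, ranked 127 of 163, and miR-206-3p, at 1.44, ranked 141. The muscle miRNAs compared ran from rank 53 (miR-499-5p, SD 0.82) to rank 162 (miR-133a-5p). The red cell miRNAs compared ran from rank 75 (miR-92a-3p) to rank 157 (miR-144-3p). Of both lists miR-499-5p, miR-92a-3p and miR-25-3p lay below the median SD, and the others compared lay above it. Sequences of 4 of the nearest, from RefSeq (GRCm38.p6) with the seed in capitals, are shown to compare their seeds.
miR-30c-5p: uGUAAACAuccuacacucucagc
miR-501-3p: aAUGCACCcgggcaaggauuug
miR-128-3p: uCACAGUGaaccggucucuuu
miR-1964-3p: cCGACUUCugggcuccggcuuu
These hold 4 distinct seeds. The nearest of all, miR-30d-5p, had no sequence in that source, so its seed was not compared with that of miR-30c-5p, whose family name it shares. Within the 10 mdx libraries alone 0 of the same 5 were among the nearest 5, and the SDs of both marker lists overlapped, at 0.46 to 1.11 for the 6 muscle miRNAs compared and 0.53 to 0.98 for the 5 red cell miRNAs compared.

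The nearest miRNAs were chosen across mdx and wt libraries together, so a difference in level like that of miR-486-5p follows from the choice and is given as a description. miR-30d-5p averaged 37806 ± 5846 CPM with Givinostat, 41360 ± 9359 CPM with vehicle and 37107 ± 5655 CPM in naive mdx mice, against 17595 ± 2890 CPM in naive wt mice. miR-501-3p averaged 1565 ± 611, 1605 ± 451.4 and 1654 ± 411 CPM in the same mdx groups, against 588 ± 135 CPM in naive wt mice. For both miRNAs the means of the 3 mdx groups lay within their SDs of one another.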

How the data were processed

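Plasma small RNA was extracted with a miRNeasy Serum/Plasma kit, made into libraries with a NEBNext kit, size selected and sequenced. The authors' notes list Bowtie 1.0.0, cutadapt 1.4.2 and bcl2fastq 1.37.0, with mm10. Their methods describe mapping to GRCm38, with no mismatch for reads of up to 25 bases and up to 2 for longer ones, and annotation with miRBase 21. The authors deposited raw counts, each the sum over the isomiRs of a mature miRNA, and log2 values of the same table after scaling per library. The log2 values entered only the limma alternatives. Samples were grouped by their titles. 0 columns were unmatched.

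In edgeR 4.0.16 (R 4.3.3) miRNAs were filtered by filterByExpr (minimum count 10), TMM factors were computed, and all 13 libraries entered 1 quasi-likelihood model of the 4 group means, with Benjamini-Hochberg adjustment over 368 miRNAs (366 with the copies summed) in each of 6 contrasts and a threshold of 0.05. Of 1907 miRNAs 1203 had a count. Each library is 1 mouse by the animal number in its title. Duplicate libraries were looked for among the 15 pairs of the same group, and none was found. Ratios (0.5 added) and shares of single mice went into exact permutation tests, two-sided (scipy 1.17.1), with Benjamini-Hochberg adjustment over 32 and 8 tests. The limit set by a count of 0, taken as 3 counts, was 1.41 to 2.48 CPM after TMM scaling. The edgeR fit was tested on simulated counts, for the contrast of naive mdx over naive wt only. These had the same spread for every miRNA and the same mean composition in all groups, apart from random changes in naive mdx. They did not hold the large share of miR-122-5p in wt libraries, so they cannot show how the fit deals with it. Alternatives were other scalings, filters and tools (DESeq2 1.42.0, limma 3.58.1), miR-122-5p or the red cell list left out, the covariate described above, and leaving out single libraries. For shares this last was chosen after seeing the data. The 4 miR-486 rows and all marker miRNAs were named by list, and the nearest miRNAs by rank. The members, lists and tests were chosen with earlier results of these data known. In the RefSeq table of mature sequences 0 of the 4 rows matched.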

Additional observations from a re-analysis of the deposited data

Results flagged for a closer look

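Among 16 sets of values of the vehicle group, the only group with 4 mice, 3 held a mouse that stood apart by Dixon's criterion at the 95% level (critical value 0.829). Chance alone meets this criterion in about 1 of 20 groups. The 16 sets are levels, shares and ratios of the same 4 mice and are not independent, so 3 of 16 cannot be judged by that rate. Vehicle mouse 41 stood apart with 6822 CPM of miR-486a-5p and with a miR-486b share of 27.4% of the 5p sum. That share is computed from the same miR-486a-5p count, so these are not separate flags. Vehicle mouse 42 stood apart at the low end of the 5p sum, with 5633 CPM. The groups of 3 mice were not checked in this way.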

How the results depend on the processing

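Of the 5p sum, all 3 calls against naive wt held under every alternative except the covariate of miR-451a to miR-23a-3p, and leaving out 1 library never ended them. With the covariate the log2 fold change of the 5p sum was 0.29 for naive mdx, 0.87 for vehicle and 0.91 for Givinostat over naive wt, 0.62 for Givinostat over naive mdx and 0.038 for Givinostat over vehicle. The 3p sum then stood at -0.50 for naive mdx and 0.050 for vehicle over naive wt and at 0.15 for Givinostat over vehicle. Single rows turned to -0.63 and -0.091 (miR-486a-3p) and -0.45 and -0.14 (miR-486b-5p) for naive mdx and vehicle over naive wt, and to 0.19 and 0.61 for Givinostat over vehicle.

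The 3p sum passed the threshold in naive mdx over naive wt with library totals (1.28) and limma on the deposited log2 values (1.18 and 1.17 with pseudocounts 1 and 5). In Givinostat over naive wt it passed with DESeq2 (0.88) and edgeR (0.87) on the 2 groups only, a mean of at least 10 CPM (0.99) and no filter (0.96). For Givinostat over naive mdx, where the 5p value lay near 0, its sign changed with DESeq2 (0.0099 on all 13 libraries, 0.0087 on the 2 groups), RLE factors (0.0066), a mean of at least 10 CPM (0.053), no filter (0.084) and upper-quartile factors (0.13). There the 3p sum was -0.28 with library totals and -0.15 with limma at either pseudocount (-0.149 and -0.148). Vehicle over naive mdx of miR-486b-5p was -0.17 with library totals and -0.14 with limma (-0.1431 and -0.1430), and Givinostat over vehicle of that row was 0.021 with upper-quartile factors. None of these passed the threshold after turning. The cause was not tested.

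Leaving out each library in turn, the 3p sum ranged over 0.46 to 1.09 for naive mdx over naive wt, 0.59 to 1.15 for Givinostat over naive wt and -0.22 to 0.42 for Givinostat over naive mdx, and the 5p sum over -0.34 to 0.36 for the last. The 3p sum passed the threshold in Givinostat over naive wt without naive mdx mouse 36 (0.87), vehicle mouse 43 (0.98) or naive wt mouse 86 (1.15). miR-486b-5p ranged over -0.16 to 0.56 for vehicle over naive mdx and -0.47 to 0.070 for Givinostat over vehicle. The log2 ratio of the 5p to the 3p sum ranged over 0.60 to 0.85 for all mdx over naive wt and -0.30 to 0.20 for Givinostat over vehicle, with an exact permutation p of 0.0606 without naive wt mouse 86 (0.60) or 95 (0.69). The nearest miRNAs shared 4 of 5 names at a minimum mean count of 1000 and 0 of 5 within the mdx libraries. No paired analysis was possible because the groups share no animal numbers. With 3 or 4 mice a group, intervals of the 5p sum span more than 1 log2 unit, and p-values of 3 against 3 or 3 against 4 mice cannot go below 0.1 and 0.0571.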
